A study of Arabidopsis thaliana with 6 samples.

Results

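The 10 genes described here encode Arabidopsis thaliana enzymes that oxidise the auxin indole-3-acetic acid (IAA), release it from stored conjugates or can make it from an amide or a nitrile, together with NIT4, a nitrilase of cyanide removal. They are the oxidase genes DAO1 (AT1G14130) and DAO2 (AT1G14120), the conjugate hydrolase genes ILR1 (AT3G02875), IAR3 (AT1G51760) and ILL2 (AT5G56660), the amidase gene AMI1 (AT1G08980), and the nitrilase genes NIT1 (AT3G44310), NIT2 (AT3G44300), NIT3 (AT3G44320) and NIT4 (AT5G22300). They were taken by gene ID, and all 10 had a row among the 24267 rows of the read count table. RNA was sequenced from wild-type Col seedlings that were 4 days old when moved to Murashige and Skoog plates with 10 nM melatonin (MT), with 1 nM IAA, or with the ethanol solvent alone at 0.1% as control. The plants were sampled at 72 h, with 2 libraries in each of the 3 groups. The doses of MT and IAA differed, and the titles of the control libraries say only that they had no treatment. Whether the 2 replicates of a treatment were grown separately is not stated in the labels, so the spread that p-values rest on may be technical.

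Plants hold active IAA at a set level by making it, by tying it to amino acids or sugars, and by oxidising it. DAO1 is the main dioxygenase that turns IAA, or its amino acid conjugates, into oxidised forms, and DAO2 is its close relative. ILR1, IAR3 and ILL2 are amidohydrolases that cut IAA off amino acid conjugates, with ILR1 known for leucine and phenylalanine conjugates and IAR3 for the alanine conjugate. AMI1 hydrolyses indole-3-acetamide to IAA. NIT1, NIT2 and NIT3 can hydrolyse indole-3-acetonitrile, a product of the indole glucosinolate and camalexin branch, whereas NIT4 acts on beta-cyanoalanine, an intermediate of cyanide removal. Melatonin and IAA are both indoles that plants make from tryptophan.

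Libraries held 35953236 to 46076624 counts, and the 10 genes had from 381 counts (DAO1, MT) to 44665 counts (NIT1, IAA) in a library, so all 10 passed the filter on low counts. The labels give seedlings as the tissue, while the series' own design note names rosette leaves. All 11 root markers listed, among them Casparian strip and root hair genes, had counts in every library, as had all 12 shoot markers. The summed level of the root markers was 169.8 and 166.7 CPM (counts scaled to library size) in MT libraries, 250.6 and 231.5 CPM in IAA libraries, and 238.8 and 173.2 CPM in control libraries. The summed shoot markers had 17706 and 17094 CPM with MT, 14771 and 13189 CPM with IAA, and 18052 and 18911 CPM in the control. Both MT libraries were thus below every other library for the root sum, and both IAA libraries were below every other for the shoot sum. Most of the shoot sum came from RBCS1A, a Rubisco small subunit gene, and CA1, a carbonic anhydrase gene. RBCS1A averaged 10927 CPM with MT, 9407 CPM with IAA and 12469 CPM in the control, and CA1 2648 CPM with MT, 2272 CPM with IAA and 3165 CPM in the control. With IAA 0 of the 12 shoot markers passed in edgeR's test, the main test here (0.332% of all genes did). RBCS1A had a log2 fold change of -0.41 (adjusted p = 0.0756, edgeR) and CA1 of -0.48 (0.157). Before adjustment 5 of the 12 stood under 0.05 (14.3% of all genes), and another tool, DESeq2, called RBCS1A and CA1 (3.95%). The median of the 12 was -0.201, with values from -0.58 to 0.26. Not every shoot marker followed the sum: among the positive values were those of the light-harvesting antenna genes LHCA1 and LHCB2.2 (0.25 and 0.11). In whole seedlings fewer cells of a type and less RNA per cell cannot be told apart.

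No gene of the 10 passed the threshold of 0.05 on the adjusted p of edgeR's quasi-likelihood test in any comparison. With MT against control 0 of 10 were called, while 7.65% of the 21355 genes tested were. With IAA against control 0 of 10 were called, against 0.332% of all genes, and with MT against IAA 0 of 10, against 0.173%. At an unadjusted p under 0.05 the counts were 1 of 10 with MT (25.2% of all genes), 2 of 10 with IAA (14.3%) and 2 of 10 between MT and IAA (17.4%). DESeq2, run as another tool, called 0 of the 10 with MT (15% of all genes it adjusted), 0 with IAA (3.95%) and 1 between MT and IAA (7.06%). The median log2 fold change of the 10 was -0.095 with MT (0.002 over all genes tested), -0.051 with IAA (0.000) and 0.031 between MT and IAA (-0.005).

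**Figure D1:**
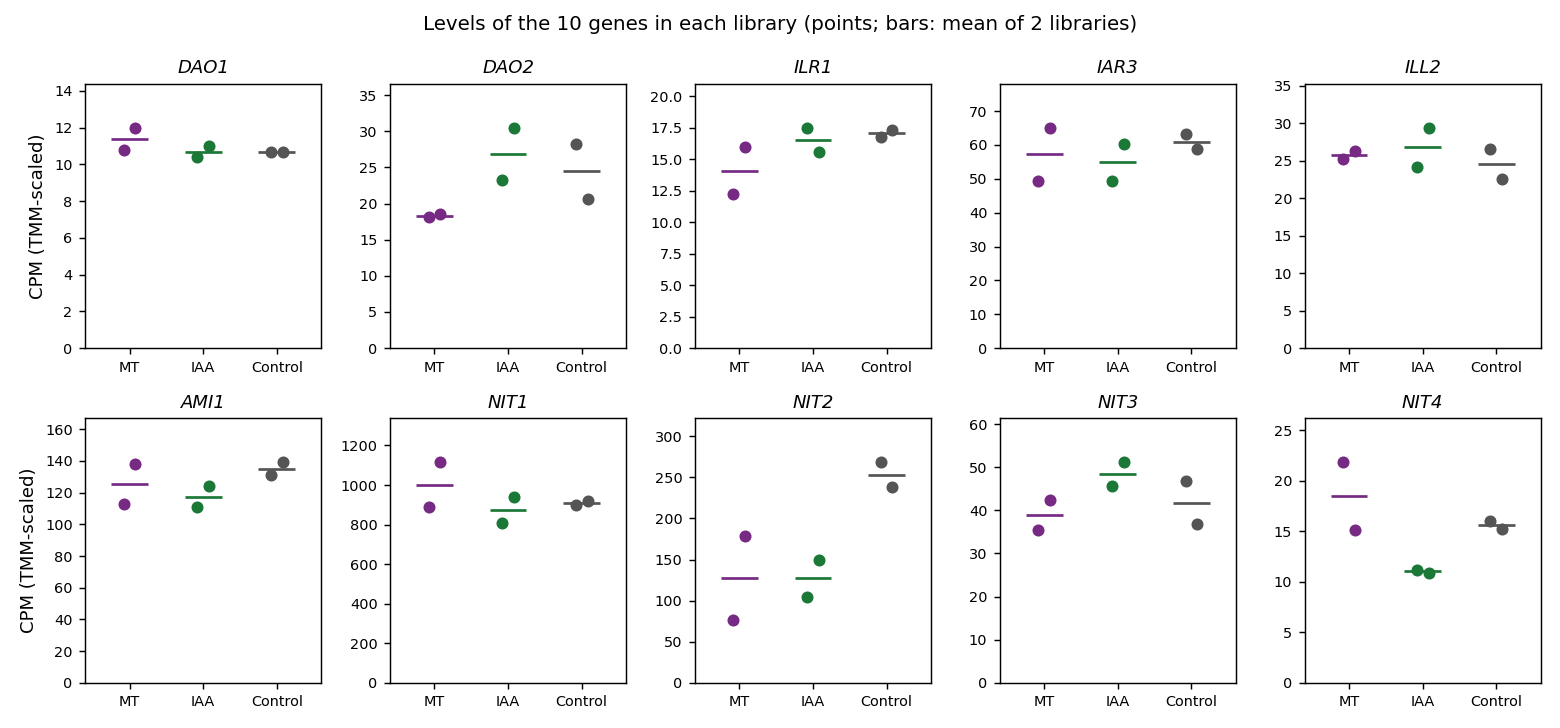
Level of each of the 10 genes in every library, in CPM scaled by TMM factors, with MT, IAA and control from left to right; points are libraries and bars are means of 2 libraries. NIT2 sits below both control libraries in all 4 treated libraries, while IAR3, ILL2 and NIT1 overlap between all groups.

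How large a difference these data leave room for can be read from the 95% confidence intervals, which were not adjusted for the number of genes. They rest on the spread between replicates, which may be technical, so they need not bound a difference between separately grown plants. With MT against control 9 of 10 genes had an interval that lay wholly within 2-fold of no change, spanning at most 0.552 to 1.58-fold, as had 76.3% of all genes. With IAA against control the count was also 9 of 10, spanning 0.525 to 1.48-fold, against 80.7% of all genes. NIT2 was the exception in both. Between MT and IAA the exception was NIT4, with the other 9 spanning 0.504 to 1.83-fold, against 79.1% of all genes.

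**Figure D2:**
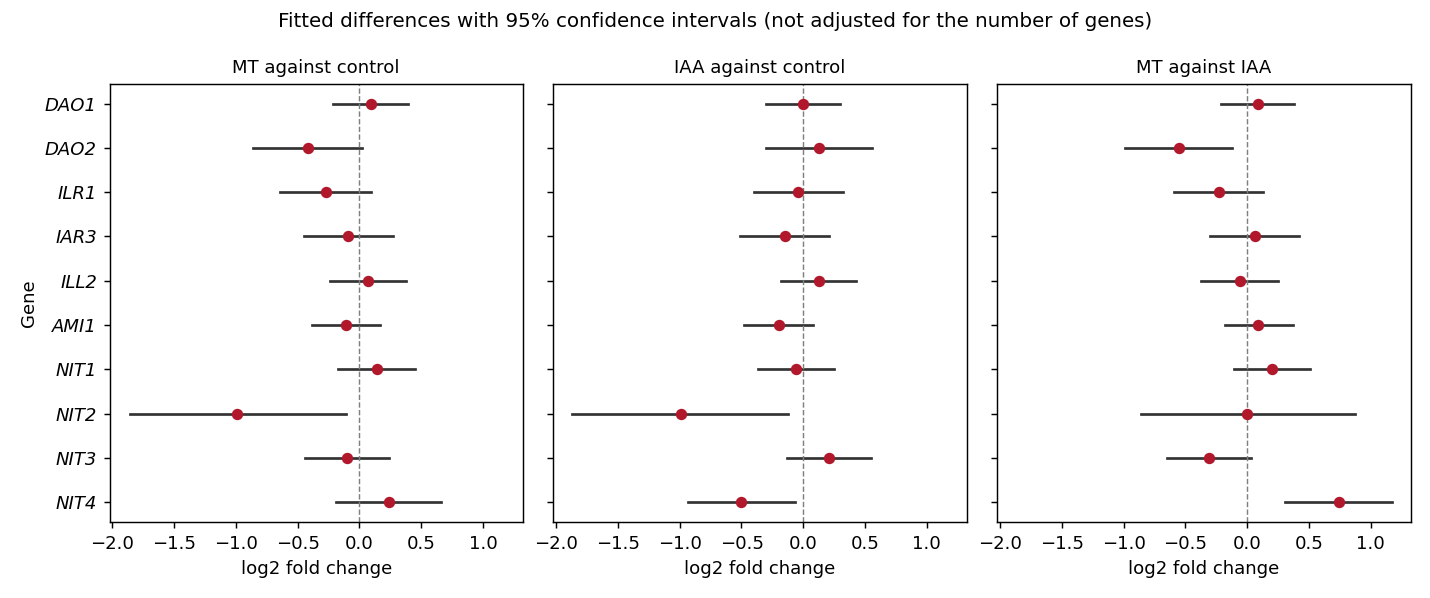
Fitted log2 fold changes (points) with 95% confidence intervals (lines) of the 10 genes in the 3 comparisons. The intervals that miss 0 are those of NIT2 with MT and with IAA, of NIT4 with IAA, and of DAO2 and NIT4 between MT and IAA, and none of these passed the adjusted threshold.

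NIT2 showed the largest fitted differences from control of the 10 genes. It had 76.4 and 179 CPM in MT libraries, 105 and 149 CPM in IAA libraries, and 268 and 238 CPM in control libraries. All 4 treated libraries were below both control libraries, and the MT libraries lay further apart than the IAA libraries. The log2 fold change was -0.99 ± 0.37 (SE; 95% interval -1.86 to -0.11; adjusted p = 0.155, edgeR) with MT. It was -0.99 ± 0.37 (-1.87 to -0.12; adjusted p = 0.302, edgeR) with IAA. Both values rest on the same control libraries. Between MT and IAA it was 0.00, with an interval from 0.55 to 1.83-fold that leaves room for a difference in either direction.

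The size of the NIT2 difference with MT moved with a single library. A fit without 1 library of a group takes its spread from the other groups alone, and assumes that the lone library varies as they do, so its p-values do not show stability. Without MT replicate 2 its log2 fold change was -1.72 (adjusted p = 0.0134, edgeR), and without MT replicate 1 it was -0.50 (adjusted p = 0.266). The biological coefficient of variation of NIT2 was 26.2%, against 10.7 to 15.2% for the other 9 genes. Of 1070 genes within 0.5 log2 units of its mean level, 99.2% had a lower coefficient. The other genes except DAO1 also varied more than most genes of like level. For these, the share with a lower coefficient ran from 70.6% (ILR1) to 91.8% (IAR3). The spread of NIT2 lay mainly in the treated groups, at 128 ± 72.5 CPM with MT and 127 ± 31.2 CPM with IAA, against 253 ± 21.2 CPM in the control (SD, n = 2 each).

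The make-up of the nitrilase counts differed between the treated and the control libraries mainly in the share of NIT2. Shares of a sum move against each other, so a lower NIT2 share goes with a higher share of its most abundant relative NIT1. NIT2 took 7.47 and 13.2% of the counts of NIT1 to NIT4 in MT libraries, 10.9 and 13% in IAA libraries, and 21.8 and 19.7% in control libraries. Exact binomial 95% intervals, which cover counting error only, were narrow, at 7.2 to 7.75% for MT replicate 1 and 21.4 to 22.2% for control replicate 1. The ratio of NIT2 to NIT1 counts was 0.086 and 0.161 with MT, 0.13 and 0.159 with IAA, and 0.298 and 0.259 in the control. These shares were not tested.

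**Figure D3:**
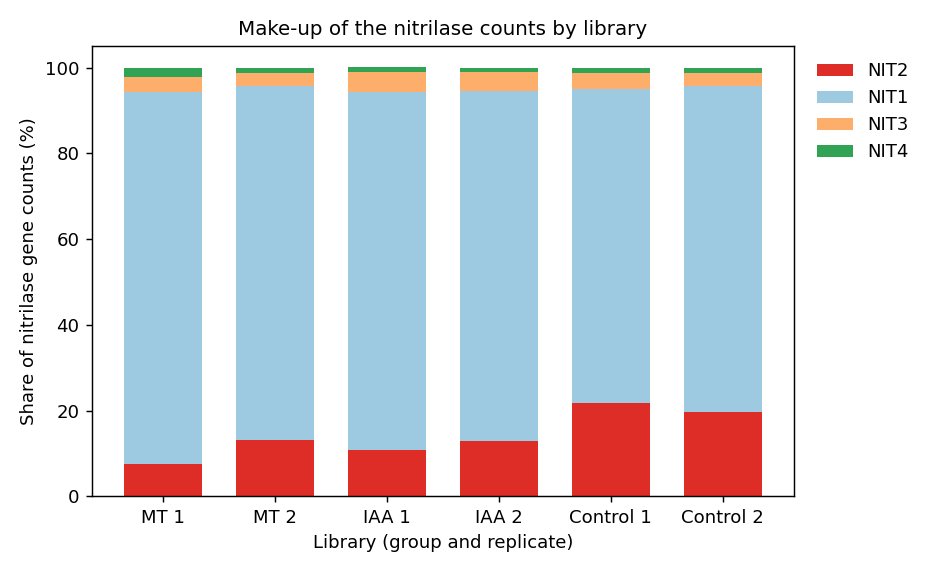
Share of the summed counts of NIT1 to NIT4 that each gene took in every library, in percent of counts not scaled for gene length. The NIT2 segment runs from 7.47 to 13.2% in the MT and IAA libraries and is 21.8 and 19.7% in the control libraries.

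NIT1, the most abundant of the 10, had 888 and 1114 CPM with MT, 807 and 939 CPM with IAA, and 900 and 919 CPM in the control. Its libraries overlapped between all groups. The log2 fold change was 0.14 ± 0.13 (adjusted p = 0.561, edgeR) with MT and -0.06 ± 0.13 (0.872) with IAA. NIT3, known in Arabidopsis for its induction by sulfur shortage, had 35.5 and 42.5 CPM with MT, 45.6 and 51.1 CPM with IAA, and 46.7 and 36.8 CPM in the control. Its MT libraries were both below its IAA libraries, with a log2 fold change between them of -0.31 ± 0.14 (adjusted p = 0.326, edgeR). NIT2, NIT1 and NIT3 follow each other without another protein-coding gene between them in the RefSeq annotation of TAIR10.1, and their coding sequences are alike. NIT1 and NIT2 share 91.4% of aligned coding bases, NIT1 and NIT3 88.1%, and NIT2 and NIT3 87.4%. Of the 50-base words of NIT2 transcripts 5.79% also occur in NIT1, and of those of NIT1 3.71% occur in NIT2 or NIT3. The labels do not state how reads that match more than 1 copy were placed, which leaves the single values of these genes uncertain. The share of common 50-base words does not set a bound on that uncertainty.

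NIT4 was lowest with IAA, and the sign of its difference from control with MT turned on a single library. It had 21.8 and 15.1 CPM with MT, 11.2 and 10.9 CPM with IAA, and 16 and 15.2 CPM in the control. Both IAA libraries were below every other library, while MT replicate 2 lay beside the controls. Between MT and IAA, at their different doses, the log2 fold change was 0.74 ± 0.18 (95% interval 0.31 to 1.17; adjusted p = 0.132, edgeR), and DESeq2 called it (adjusted p = 0.00856). With a lone MT library, and so the spread of the other groups alone, it was 0.98 without MT replicate 2 (adjusted p = 0.0402, edgeR) and 0.45 when MT replicate 1 was dropped (0.375). Against control it had 0.24 ± 0.18 (adjusted p = 0.458, edgeR) with MT and -0.50 ± 0.18 (0.292) with IAA. The value with MT was -0.05 when MT replicate 1 was left out. NIT4 shares no 50-base word with another gene.

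Of the oxidase genes, DAO1 stayed between 10.4 and 12 CPM in all 6 libraries. It had 10.8 and 12 CPM with MT, 10.4 and 11 CPM with IAA, and 10.7 and 10.7 CPM in the control. Its 95% intervals ran from 0.864 to 1.31-fold with MT and from 0.815 to 1.23-fold with IAA. Its biological coefficient of variation was 12.5%, and 17.4% of 3285 genes of like level had a lower one.

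DAO2, which lies next to DAO1 in the annotation, was higher than DAO1 per length in every group and lowest with MT. It had 18.1 and 18.5 CPM with MT, 23.2 and 30.5 CPM with IAA, and 28.3 and 20.7 CPM in the control. Both MT libraries were below all others, and the IAA and control libraries overlapped. The log2 fold change was -0.42 ± 0.18 (adjusted p = 0.211, edgeR) with MT against control and -0.55 ± 0.18 (0.206) with MT against IAA, and DESeq2 gave the second an adjusted p of 0.0717. With single libraries left out the value against control ran from -0.63 to -0.18, the smallest being that without control replicate 1. The summed root markers were also lowest in the 2 MT libraries, and of the 11 root markers 1 fell with MT, CASP5, by 1.27 on the log2 scale (adjusted p = 0.0182, edgeR), while 3.65% of all genes fell. The median log2 fold change of the 11 was -0.379 with MT against control and -0.641 with MT against IAA. Against control 3 stood under 0.05 unadjusted (25.2% of all genes) and DESeq2 called 2 (15%). Between MT and IAA 0 passed in edgeR's test, 9 stood under 0.05 unadjusted (17.4%) and DESeq2 called 5 (7.06%). WOX5, of the root stem cell niche, and RSL4, a root hair regulator, had positive values with MT against control (0.43 and 0.33) that did not pass. Of the 12 shoot markers 2 rose with MT, against 3.99% of all genes: LHCB2.2 by 0.91 (adjusted p = 0.0126, edgeR) and LHCA1 by 0.85 (0.0152). The median of the 12 was 0.071 with MT against control, with values from -0.60 to 0.91, and 0.242 with MT against IAA. With MT against control 6 of the 12 stood under 0.05 unadjusted (25.2% of all genes), in both directions, and DESeq2 called 2 (15%). For MT against IAA 0 passed in edgeR's test, 5 stood under 0.05 unadjusted (17.4%) and DESeq2 called 3 (7.06%). RBCS1A and CA1, which make up most of the shoot sum, had negative values with MT (-0.19 and -0.26) that did not pass. The part of these marker levels in the DAO2 values was not tested.

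The conjugate hydrolase genes showed small differences. ILR1 had 12.2 and 16 CPM with MT, 17.5 and 15.6 CPM with IAA, and 16.8 and 17.3 CPM in the control. Both MT libraries were below both control libraries, with a log2 fold change of -0.27 ± 0.15 (adjusted p = 0.319, edgeR). It ran from -0.47 to -0.09 with single libraries left out, the smallest being that without MT replicate 1. IAR3 had 49.3 and 65.1 CPM with MT, 49.5 and 60.4 CPM with IAA, and 63.2 and 58.7 CPM in the control, and its groups overlapped. ILL2 had 25.2 and 26.3 CPM with MT, 24.2 and 29.4 CPM with IAA, and 26.6 and 22.5 CPM in the control, again with overlap. The 95% intervals with MT were 0.643 to 1.07-fold for ILR1, 0.731 to 1.2-fold for IAR3 and 0.846 to 1.3-fold for ILL2. With IAA they were 0.756 to 1.25-fold for ILR1, 0.703 to 1.16-fold for IAR3 and 0.881 to 1.35-fold for ILL2. ILL2 overlaps 2 other gene models, with which it could share reads. Its coding sequence shares 91.3% of aligned bases with that of its relative ILL1, but only 0.504% of its 50-base words (8 of 1587) occur there.

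AMI1 had 113 and 138 CPM with MT, 111 and 124 CPM with IAA, and 131 and 139 CPM in the control. Both IAA libraries were below both control libraries, whereas an MT library lay on either side of the lower control. The log2 fold change was -0.20 ± 0.12 (adjusted p = 0.494, edgeR) with IAA and -0.11 ± 0.12 (0.626) with MT.

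Libraries of 2 groups without overlap were common over all genes, so such separation says little about a single gene here. With MT against control 4 of the 10 genes had no overlap (DAO2, ILR1 and NIT2 lower, DAO1 higher), against 55.5% of all genes. With IAA against control 3 had none (AMI1, NIT2 and NIT4, all lower), against 48.4%. Between MT and IAA 3 had none (DAO2 and NIT3 lower with MT, NIT4 higher), against 50.4%.

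Levels can be compared between genes only per length, here as mean CPM per kb of exon length in the TAIR10.1 annotation. NIT1 was highest in all groups, at 405 ± 64.7 with MT, 353 ± 37.7 with IAA and 368 ± 5.55 in the control (SD, n = 2 each). NIT2 came next, at 83.1 ± 47.2 with MT, 82.9 ± 20.3 with IAA and 165 ± 13.8 in the control. AMI1 followed, at 79.7 ± 11.3 with MT, 74.7 ± 6.2 with IAA and 85.7 ± 3.27 in the control. NIT2 stood clear of AMI1 in the control libraries, while with MT and with IAA the libraries of these 2 genes overlapped. IAR3 and NIT3 were lower, at 25.7 to 33.5 in the group means, and overlapped with MT and with IAA. DAO2 and ILL2 came next at 13.9 to 20.5, and overlapped with IAA and in the control but not with MT, where ILL2 was the higher. The lowest were ILR1, DAO1 and NIT4, at 4.52 to 8.93. With MT these 3 overlapped each other, and in the other groups they did not. By coding length the order was the same with IAA, but NIT4 came above ILR1 and DAO1 in the control, and DAO1 above ILR1 with MT.

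**Figure D4:**
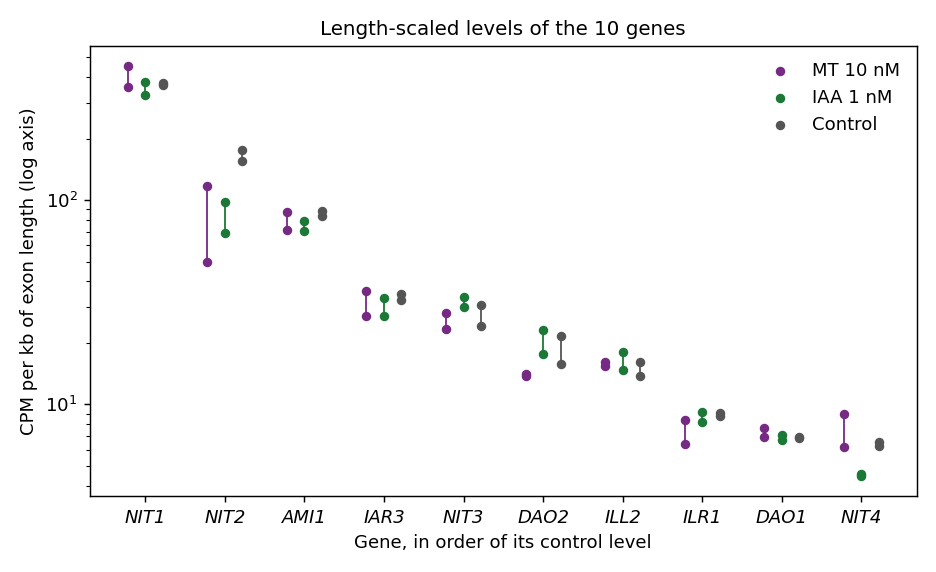
CPM per kb of exon length of the 10 genes (log axis), in order of their control level; points are libraries, joined by a line within a group. NIT1 is highest in every library, and the NIT2 libraries overlap those of AMI1 with MT and with IAA but not in the control.

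The genes whose levels followed NIT2, DAO2 and ILR1 most closely over the 6 libraries were sought among 18305 others whose mean reached 2 CPM. With 6 libraries many genes reach a high correlation, and Pearson's r of log2 CPM was above 0.95 for 38 genes with NIT2, 103 with DAO2 and 80 with ILR1. Closest to NIT2 were PA2 (AT5G06720), which encodes a peroxidase (r = 0.9888), AT3G47940 (0.9878) and COBL2 (AT3G29810), a COBRA-like gene (0.9871). Closest to DAO2 were AT2G18370 (0.9962), the RALF-like peptide gene RALFL32 (AT4G14010) (0.9958) and AT3G10912 (0.9904). Closest to ILR1 were iqd9 (AT2G33990) (0.9964), AT1G11390 (0.9960) and AT2G23690 (0.9902). None of these 9 genes passed the adjusted threshold with MT (adjusted p 0.241 to 0.401, edgeR) or with IAA.

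Other genes of the same pathways, or of the same enzyme families, were counted beside the 10, as 48 listed genes of which 46 had counts and 45 were tested. With MT against control 3 rose (3.99% of all genes did), 3 fell (3.65%) and 39 did not pass. Before adjustment 19 of the 45 stood under 0.05 (25.2% of all genes), and DESeq2 called 13 (15%). With IAA against control, and between MT and IAA, 0 of 45 passed in edgeR's test. With IAA 11 stood under 0.05 before adjustment (14.3% of all genes) and DESeq2 called 1 (3.95%). Between MT and IAA 11 did (17.4%) and DESeq2 called 7 (7.06%).

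Of the 6 genes that passed with MT, 4 belong to the lists of conjugating enzymes. GH3 enzymes tie IAA to amino acids, the type of conjugate that ILR1, IAR3 and ILL2 cut. Of 7 tested GH3 genes 1 rose (3.99% of all genes did) and 2 fell (3.65%). Before adjustment 6 of the 7 stood under 0.05 (25.2% of all genes), and DESeq2 called 5 (15%). The further calls of DESeq2 were GH3.6, higher with MT (0.61 ± 0.20, adjusted p = 0.0199), and GH3.17, lower (-0.38 ± 0.12, 0.044). In edgeR's test these had adjusted p of 0.112 and 0.103. GH3.3 (AT2G23170) had 11.7 and 13.6 CPM with MT, 21.6 and 32.2 CPM with IAA, and 39.7 and 39.7 CPM in the control (MT against control -1.65 ± 0.19, adjusted p = 0.00664, edgeR). GH3.2 (AT4G37390) had 8.6 and 8.67 CPM with MT, 13.9 and 15.1 CPM with IAA, and 16.6 and 14.6 CPM in the control (-0.85 ± 0.13, adjusted p = 0.0133). GH3.5 (AT4G27260), which conjugates salicylate as well as IAA, had 47.9 and 47.3 CPM with MT, 37.7 and 31.3 CPM with IAA, and 25.6 and 29 CPM in the control (0.80 ± 0.11, adjusted p = 0.0116). GH3.3, GH3.2 and GH3.5 were named for having passed, and their MT and control libraries did not overlap, as in 55.5% of all genes. Their MT and IAA libraries did not overlap either, as in 50.4% of all genes. Between MT and IAA none of them passed in edgeR's test (adjusted p 0.092 to 0.132), while DESeq2 called them (adjusted p 1.54e-05 to 0.0183). Among 5 tested genes of glucosylation and methylation 2 stood under 0.05 unadjusted (25.2% of all genes). DESeq2 called 2 (15%), UGT74E2 and, higher with MT, MES17 (0.66 ± 0.20, adjusted p = 0.0961 in edgeR and 0.0363 in DESeq2). In edgeR's test 1 of the 5 fell, against 3.65% of all genes. This gene, UGT74E2 (AT1G05680), a glucosyltransferase that acts mainly on indole-3-butyric acid, had 7.52 and 7.48 CPM with MT, 12.2 and 9.14 CPM with IAA, and 16.4 and 14.6 CPM in the control (MT against control -1.05 ± 0.17, adjusted p = 0.0173).

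On the nitrile side, 2 of 10 genes of glucosinolate breakdown rose with MT, against 3.99% of all genes. ESM1 (AT3G14210), which in Arabidopsis limits nitrile formation from glucosinolates, had 498 and 740 CPM with MT, 264 and 261 CPM with IAA, and 234 and 264 CPM in the control (MT against control 1.31 ± 0.18, adjusted p = 0.0109, edgeR). PEN2 (AT2G44490), a myrosinase of indole glucosinolates, had 219 and 217 CPM with MT, 203 and 202 CPM with IAA, and 165 and 161 CPM in the control (0.42 ± 0.08, adjusted p = 0.023). With IAA against control PEN2 had 0.31 ± 0.08 (adjusted p = 0.178, edgeR), which DESeq2 called (0.00258), and between MT and IAA 0.11 (0.513, edgeR). DESeq2 called 3 of these 10 genes with MT (15% of all genes). The third, NSP1 (AT3G16400), was lower with MT (-0.44 ± 0.14, adjusted p = 0.1 in edgeR and 0.0139 in DESeq2). The 6 genes of indole-3-acetonitrile supply and use, among them CYP79B2 and CYP71A13, had a median of 0.162 with MT and -0.024 with IAA, and 0 passed in edgeR's test. At an unadjusted p under 0.05 they had 1 gene with MT, and DESeq2 called 0. For the lists that follow, the shares over all genes with MT were again 7.65% in edgeR, 25.2% unadjusted and 15% in DESeq2. Of the 3 genes of cyanide handling 0 passed with MT in edgeR, with 3 under 0.05 unadjusted and 2 in DESeq2. All 3 had positive log2 fold changes with MT, at 0.53 for CYSC1, 0.18 for STR1 and 0.89 for DES1. With IAA these genes had 0.27, 0.08 and -0.20, which did not pass. Of 3 relatives of the conjugate hydrolases 0 passed with MT, with 1 under 0.05 unadjusted and 1 called by DESeq2. This gene, ILL6, averaged 12.7 CPM with MT and 25.3 CPM in the control (-0.99 ± 0.23, adjusted p = 0.0521 in edgeR and 0.000731 in DESeq2). With IAA its log2 fold change was -0.72 ± 0.23 (adjusted p = 0.255, edgeR). Of 5 relatives of the amidase 0 passed, with 1 under 0.05 unadjusted and 0 in DESeq2. Of 6 genes that convert indole-3-butyric acid to IAA 0 passed, with 2 under 0.05 unadjusted and 0 in DESeq2. Of the 6 genes that passed with MT, GH3.3 had adjusted p of 0.00507 to 0.0376 (edgeR) with each library left out in turn. In 4 of these 6 fits the MT or control arm was a lone library, with the spread taken from the other groups. The other 5 each missed the threshold without control replicate 1 (adjusted p 0.0623 to 0.0982, edgeR), where calls over all genes numbered 514, against 1633 with every library. Their log2 fold changes in that setting were -0.76 for GH3.2, 0.71 for GH3.5, -0.96 for UGT74E2, 0.44 for PEN2 and 1.23 for ESM1. UGT74E2, PEN2 and ESM1 also missed it without control replicate 2 (0.0512 to 0.115), GH3.2, UGT74E2 and PEN2 without MT replicate 1 (0.063 to 0.0758), and UGT74E2 and PEN2 without MT replicate 2 (0.0602 and 0.0516). The folds without control replicate 2 were -1.12 for UGT74E2, 0.40 for PEN2 and 1.40 for ESM1. Those without MT replicate 1 were -0.84 for GH3.2, -1.04 for UGT74E2 and 0.42 for PEN2, and those without MT replicate 2 were -1.03 for UGT74E2 and 0.44 for PEN2, all as log2 fold changes.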

How the data were processed

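RNA-seq read counts per gene were taken as the authors deposited them, in 1 table of raw counts for all 6 libraries. Per the submitters' processing notes the tools were HTSeq 0.6.1, DESeq 1.18.0, Bowtie2 2.2.3 and TopHat2 2.0.12. The labels state no genome build, annotation or strand setting, so overlapping genes can share reads and no coordinates are given. TAIR10.1 (RefSeq) was used for symbols, neighbours, exon length and sequence likeness. All 10 IDs matched a locus tag; the names DAO1 and DAO2 are those in common use.

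The main test was edgeR's quasi-likelihood test (edgeR 4.0.16 in R 4.3.3) on all 6 libraries with group as sole term, after filterByExpr and TMM scaling. Benjamini-Hochberg adjustment covered the 21355 genes tested, and the threshold was 0.05. Adjusted p-values without another name are edgeR's. Alternatives were relative log expression factors, no filter, DESeq2 1.42.0, robust empirical Bayes, a replicate block, and leaving out each library. Libraries of a group differed beyond counting noise (chi-square over its degrees of freedom 25.6 to 32.8), so none was merged as a copy of another. The 10 genes and the lists of other genes were chosen with earlier results of these data known. Named beside the 10 were up to 3 called genes per list with the smallest p. The 3 genes most like NIT2, DAO2 and ILR1 (taken by the smallest p with MT) were named too. Outside this rule came CASP5, WOX5, RSL4, RBCS1A, CA1, LHCA1, LHCB2.2, CYP79B2, CYP71A13, NSP1 and ILL1. So did GH3.6, GH3.17, MES17, CYSC1, STR1, DES1 and ILL6.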

Additional observations from a re-analysis of the deposited data

How the results depend on the processing

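Relative log expression factors and robust empirical Bayes changed no call of the 10 genes in any comparison, and neither did dropping the filter. The count of the 10 called was 1 between MT and IAA with DESeq2 (NIT4), and with single libraries left out it ranged from 0 to 1 both for MT against control (NIT2, without MT replicate 2) and for MT against IAA (NIT4, without the same library). Over all genes DESeq2 called 794 genes with IAA (edgeR 71), 3010 with MT (edgeR 1633) and 1273 between MT and IAA (edgeR 37). Robust empirical Bayes called 130 with IAA and 142 between MT and IAA, and without the filter 76 were called between MT and IAA. With single libraries left out the counts ranged from 15 to 113 with IAA, from 493 to 1300 with MT and from 6 to 340 between MT and IAA. The cause of these shifts was not tested.

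Same-numbered libraries did not deviate together over the genes tested (correlations of 0.007 to 0.079). The labels state no pairing, and such correlations cannot show whether samples were grown or handled in pairs. With the replicate number as a block 12 genes were called between MT and IAA, no call of the 10 genes changed, and NIT2 had -0.06 there.

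Small differences changed sign in 20 of 330 repeats over the 10 genes, all with a value of at most 0.24 in size in the fit reported. With single libraries left out the log2 fold changes with IAA ranged from -0.03 to 0.05 for DAO1, -0.07 to 0.37 for DAO2, -0.12 to 0.05 for ILR1, -0.01 to 0.27 for ILL2 and -0.16 to 0.06 for NIT1. With MT they ranged from -0.30 to 0.10 for IAR3, -0.04 to 0.19 for ILL2, -0.25 to 0.04 for AMI1, -0.03 to 0.30 for NIT1, -0.26 to 0.08 for NIT3 and -0.05 to 0.49 for NIT4. Between MT and IAA they ranged from -0.16 to 0.24 for IAR3, -0.19 to 0.09 for ILL2, -0.06 to 0.23 for AMI1 and -0.74 to 0.49 for NIT2. Each of the 10 genes had 381 counts or more in every library, so none was near the limit of detection.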
